A study of Mus musculus with 12 samples.

Results

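The genes described here are 7 epithelial genes, Krt8, Krt18, Cldn1, Cldn2, Cldn3, Cdh1 and Epcam, taken by symbol from the 27833 genes of the hippocampal RNA sequencing table. They were chosen after their expression in the 3 groups was known, so their differences from the control group are descriptions without a test. The study asked whether oral pyrroloquinoline quinone (PQQ), a redox cofactor, improves cognition in naturally aged mice, and hippocampal RNA sequencing was 1 part of its search for a mechanism. All mice were male C57BL/6J, 20 months old, and received oral gavage for 14 days. The CON group (3 libraries) received normal saline, the PQQ-L group (5 libraries) 5 mg/kg/day of PQQ and the PQQ-H group (4 libraries) 10 mg/kg/day of PQQ, with 6 mice assigned to each group by the study. Libraries are named by their group and replicate number, and which mouse gave which library was not stated. If libraries share a mouse, the p-values measure technical spread in part.

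Epithelial cells are held together at their sides by junctions that also seal the sheet. Claudins form the strands of the tight junction, where barrier claudins such as Cldn1 and Cldn3 restrict the passage of solutes and Cldn2 forms a pore for cations and water. E-cadherin, the product of Cdh1, holds neighboring cells together at the adherens junction, and Epcam is an adhesion molecule of the lateral membrane. Krt8 and Krt18 are the type II and type I keratins that pair into the intermediate filaments of simple epithelia. Neurons and glia do not form such sheets. In the brain, simple epithelium of this kind covers the choroid plexus, where blood vessels and cerebrospinal fluid meet, and barrier cells with tight junctions line the arachnoid of the meninges.

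The keratin pair lies on chromosome 15 in GRCm38 (GENCODE M21), with Krt8 (ENSMUSG00000049382.10) at chr15:101996698-102004482 on the minus strand and Krt18 (ENSMUSG00000023043.7) at chr15:102028180-102032027 on the plus strand. They are separated by 23697 bases with 0 annotated genes between them. The claudins are scattered, with Cldn1 (ENSMUSG00000022512.3) at chr16:26356642-26371841 on the minus strand, Cldn2 (ENSMUSG00000047230.6) at chrX:139800828-139811386 on the plus strand and Cldn3 (ENSMUSG00000070473.4) at chr5:134986214-134987472 on the plus strand. Cdh1 (ENSMUSG00000000303.12) is at chr8:106603351-106670246 and Epcam (ENSMUSG00000045394.9) at chr17:87635979-87651129, both on the plus strand. Cldn3 has 1 exon, whereas Cdh1 has 16 exon blocks. An exon block of Krt8 overlaps Gm36026 on the opposite strand and the exon of Cldn3 overlaps Wbscr25 on the opposite strand, and the strandedness of the counting is not given in the sources used here, so such reads cannot be told apart. Gm36026 was at an FPKM of 0 in all libraries except PQQ-L 3 (0.0153), and Wbscr25 had at most 11 reads in a library. The annotation also lists 1 pseudogene named after Krt8, so the Krt8 level is uncertain to the extent that reads are shared with it.

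The promoters of the keratin pair and of the claudins Cldn2 and Cldn3 are shown because these 4 genes had the largest differences from CON. Each run holds the 250 bases before the RefSeq start in GRCm38.p6, read 5′ to 3′ on the strand of the gene, and capitals mark the motifs found. The windows are chr15:102004343-102004592 (minus) for Krt8, chr15:102027966-102028215 (plus) for Krt18, chrX:139800558-139800807 (plus) for Cldn2 and chr5:134985964-134986213 (plus) for Cldn3.
Krt8: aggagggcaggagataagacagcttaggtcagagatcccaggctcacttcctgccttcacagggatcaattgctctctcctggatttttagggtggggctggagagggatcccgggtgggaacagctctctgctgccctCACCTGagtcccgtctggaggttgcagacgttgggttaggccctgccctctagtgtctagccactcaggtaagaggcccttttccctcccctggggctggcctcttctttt
Krt18: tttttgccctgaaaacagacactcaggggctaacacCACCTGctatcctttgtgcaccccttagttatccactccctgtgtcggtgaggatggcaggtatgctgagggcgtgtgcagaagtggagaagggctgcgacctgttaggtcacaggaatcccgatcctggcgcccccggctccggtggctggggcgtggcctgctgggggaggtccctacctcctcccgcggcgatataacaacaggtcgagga
Cldn2: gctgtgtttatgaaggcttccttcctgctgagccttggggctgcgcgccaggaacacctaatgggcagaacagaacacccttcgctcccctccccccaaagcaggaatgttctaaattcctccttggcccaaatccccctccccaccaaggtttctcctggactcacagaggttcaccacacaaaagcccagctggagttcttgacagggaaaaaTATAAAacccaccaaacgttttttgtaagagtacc
Cldn3: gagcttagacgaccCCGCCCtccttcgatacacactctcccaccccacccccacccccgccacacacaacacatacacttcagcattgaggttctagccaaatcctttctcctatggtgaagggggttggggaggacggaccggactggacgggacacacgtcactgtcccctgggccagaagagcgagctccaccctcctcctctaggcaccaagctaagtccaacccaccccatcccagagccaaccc
A promoter entry was matched for 6 of the 7 genes (all but Cdh1). The motifs searched on both strands were the E-box CAGGTG bound by zinc finger repressors of epithelial genes, the GC box GGGCGG, the TATA box TATAAA and TAATCC, the motif of Otx-type homeobox factors. Krt8 and Krt18 each held 1 E-box, starting 111 and 214 bases before the RefSeq start, and Epcam held 2. The GENCODE starts of these keratins (102004482 for Krt8 and 102028180 for Krt18) lie within their windows. Part of each window is therefore inside the gene as given above, and so is the E-box of Krt8. The E-box was found in 17.2% of all 32851 promoters of the same length. Cldn2 held the single TATA box of the 6 promoters, 35 bases before the start (12.4% of all promoters). The GC box was found once in Cldn3 and Epcam and 2 times in Cldn1 (32.7% of all promoters). TAATCC was found in none of the 6 windows and in 6.25% of all promoters. No motif searched was shared by the 4 promoters shown. A match describes letters only.

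Between 29654553 and 38179496 reads were counted on genes per library (median 35168171.5). Levels are given as FPKM (reads divided by the length of the gene and by the total of the library), and the read counts underlying them were recovered from the table. The libraries were labelled hippocampus, but CON 1, CON 3, PQQ-H 1 and PQQ-H 2 stood apart. Their summed FPKM of 9 striatal neuron markers was 1307 to 3268, against 37.1 to 176 in the other 8 libraries. C1ql2, a marker of dentate granule neurons, was at an FPKM of 0.183 in CON 1 and 1.21 to 5.29 in the other 3, against 14.5 to 68.2 in the 8 libraries low in striatal markers. The differences of the 7 genes, their ratios and correlations and the counts of called genes are therefore also given without the 4 libraries, which leaves 1 CON, 5 PQQ-L and 2 PQQ-H libraries (an alternative chosen after seeing the data).

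The keratins were the most abundant of the 7 genes in the CON group and nearly undetected in the PQQ-H group. Krt8 was at an FPKM of 6.27, 3.47 and 10.95 in CON 1 to 3 (402, 186 and 662 reads). It was at 0.169, 0.218, 0.279, 0.299 and 0.0649 in PQQ-L 1 to 5 (4 to 19 reads), and at 0.0158, 0.0342, 0.0157 and 0 in PQQ-H 1 to 4 (1, 2, 1 and 0 reads). The 3 groups did not overlap, and every PQQ-H library lay below every PQQ-L library. CON libraries averaged 6.90 ± 3.78 (SD, n = 3), PQQ-L libraries 0.206 ± 0.0940 (SD, n = 5) and PQQ-H libraries 0.0164 ± 0.0140 (SD, n = 4). The CON mean was 33.5-fold higher than that of PQQ-L. Over the 4 reads of the PQQ-H group, the ratio of pooled reads, scaled to library totals, was 434 with a 95% exact counting interval of 169 to 1595. Such intervals cover counting error only.

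Krt18 was at an FPKM of 14.24, 6.38 and 25.28 in CON 1 to 3. It was at 0.338, 0.243, 0.279, 0.751 and 0.398 in PQQ-L 1 to 5 (13 to 37 reads), and at 0.122, 0.0441, 0.122 and 0.0209 in PQQ-H 1 to 4 (1 to 6 reads). The groups did not overlap, and CON 3 was the highest and CON 2 the lowest CON library for both keratins. The mean FPKM of Krt18 was 15.3 ± 9.49 (SD, n = 3) in CON, 38.1-fold that of PQQ-L (0.402 ± 0.204, SD, n = 5) and 198-fold that of PQQ-H (0.0771 ± 0.0524, SD, n = 4). The FPKM of Krt8 relative to its partner Krt18 was 0.433 to 0.544 in the CON libraries. It spread from 0.163 to 0.997 in PQQ-L and from 0 to 0.776 in PQQ-H, where a ratio rests on at most 7 reads of both genes together. The ranges of this ratio overlapped between all groups. Without the 4 libraries high in striatal markers it was 0.544 in CON 2, 0.163 to 0.997 in PQQ-L and 0.129 and 0 in PQQ-H.

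Cldn2, the pore-forming claudin, was at an FPKM of 3.69, 1.77 and 4.87 in CON 1 to 3. It was at 0.212, 0.104, 0.520, 0.286 and 0.206 in PQQ-L 1 to 5, and at 0.0955, 0.0942, 0.130 and 0.0714 in PQQ-H 1 to 4 (8 to 15 reads). Both PQQ groups lay below CON without overlap, and PQQ-L 2 lay within the range of PQQ-H. The CON mean (3.44 ± 1.56, SD, n = 3) was 13.0-fold that of PQQ-L and 35.2-fold that of PQQ-H.

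Cldn3, a sealing claudin, was at an FPKM of 2.34, 1.31 and 4.14 in CON 1 to 3 (105, 49 and 175 reads). In PQQ-L it was at 0, 0.0207, 0.199, 0.0225 and 0.0232, which is 9 reads in PQQ-L 3 and at most 1 read in each of the others. In PQQ-H it was at 0.0225, 0.0244, 0.0225 and 0, at most 1 read per library. Every CON library lay above every PQQ library, and at this depth PQQ-L and PQQ-H could not be ordered apart from PQQ-L 3. The ratio of pooled and scaled reads was 49.8 for CON over PQQ-L (95% exact counting interval 28.1 to 97.4) and 152 for CON over PQQ-H (51.6 to 742).

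Cldn1, a barrier claudin, overlapped between CON and PQQ-L. It was at an FPKM of 0.547, 2.13 and 4.43 in CON 1 to 3, at 2.37, 0.372, 2.27, 0.263 and 0.859 in PQQ-L 1 to 5 and at 0.518, 0.543, 0.289 and 0.280 in PQQ-H 1 to 4. PQQ-L spanned the values of CON 1 and CON 2, while the highest PQQ-H library (0.543) fell just below the lowest CON library (0.547). The CON mean was 1.93-fold that of PQQ-L and 5.82-fold that of PQQ-H. The library names begin with L or R, a letter whose meaning is not given. Among libraries named R, Cldn1 was 1.12 higher on the log2 scale in PQQ-L (n = 3) than in the single CON library, whereas among those named L it was lower (difference -2.43, n = 2 and 2).

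Cdh1 and Epcam were low throughout, with a mean FPKM over the 12 libraries of 0.112 and 0.232. Cdh1 was at 0.0508, 0.259 and 0.155 in CON 1 to 3 (8, 34 and 23 reads), at 0.182, 0.0414, 0.296, 0.135 and 0.192 in PQQ-L 1 to 5 and at 0.00642, 0.0139, 0.0192 and 0 in PQQ-H 1 to 4 (1, 2, 3 and 0 reads). CON and PQQ-L overlapped and had nearly equal means (0.155 ± 0.104, SD, n = 3, and 0.169 ± 0.0926, SD, n = 5), and all PQQ-H libraries lay below both. Epcam was at 0.888, 0.491 and 0.203 in CON 1 to 3, at 0.0405, 0.0508, 0.0542, 0.221 and 0.668 in PQQ-L 1 to 5 and at 0, 0, 0.138 and 0.0284 in PQQ-H 1 to 4. PQQ-L 4 and PQQ-L 5 reached the CON range, and no PQQ-H library did. For Epcam the difference from CON among libraries named L turned direction in PQQ-L (0.23 on the log2 scale, n = 2 and 2, against -2.73 among those named R, n = 3 and 1).

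**Figure D1:**
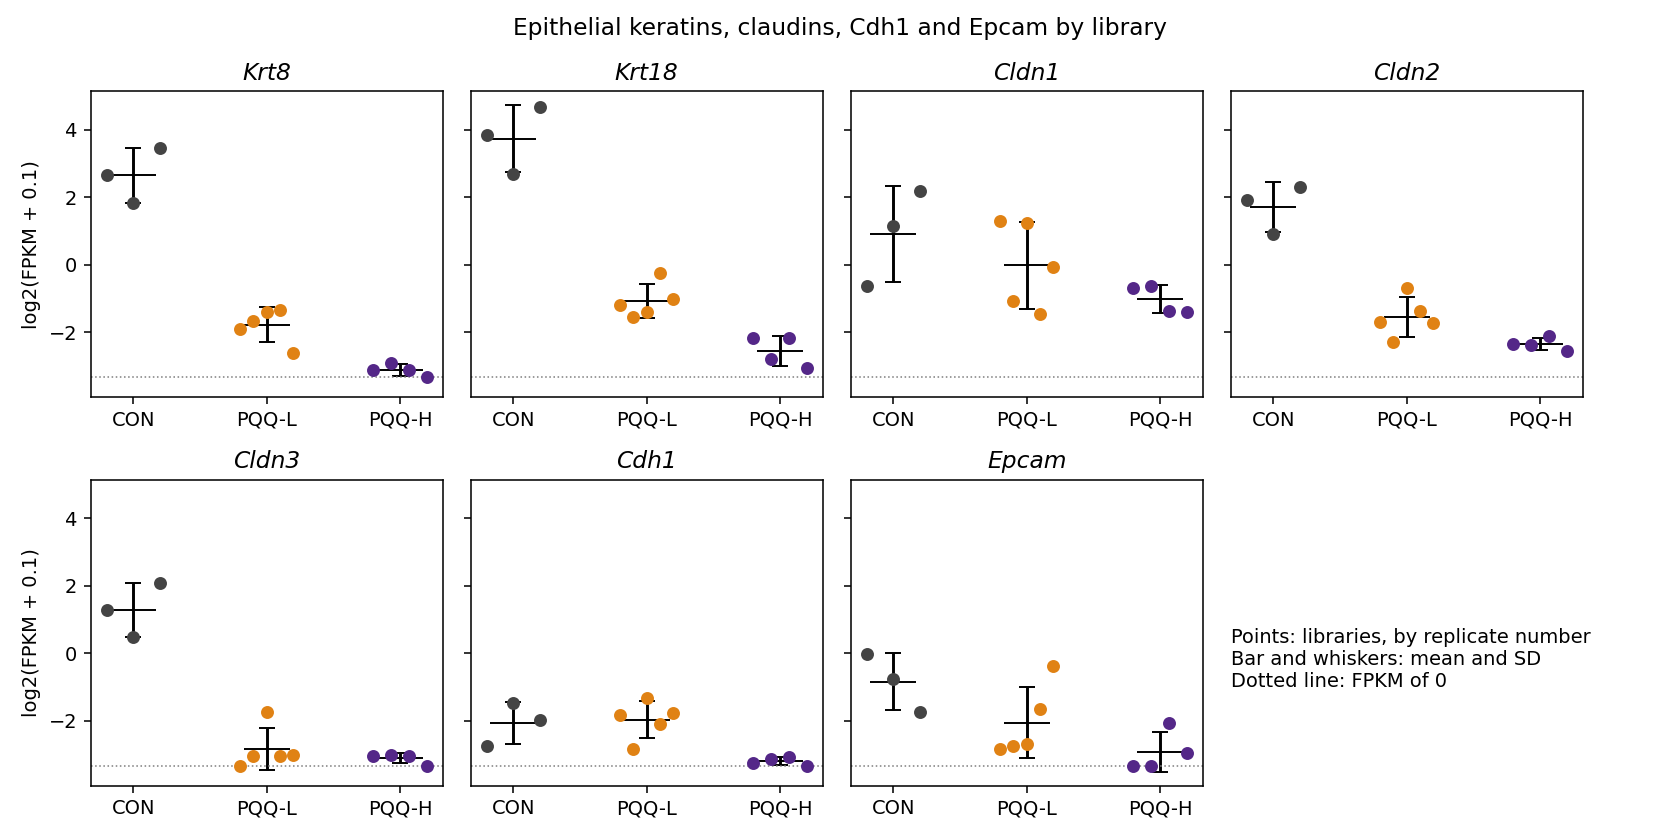
Level of each of the 7 genes as log2(FPKM + 0.1) in the CON (n = 3), PQQ-L (n = 5) and PQQ-H (n = 4) libraries, 1 point per library, with the mean and SD as bar and whiskers and a dotted line at an FPKM of 0. Krt8, Krt18, Cldn2 and Cldn3 separated CON from both PQQ groups, whereas Cldn1, Cdh1 and Epcam overlapped between CON and PQQ-L.

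The order of the levels within a library changed between groups. In CON the order by mean FPKM was Krt18, Krt8, Cldn2, Cldn3, Cldn1, Epcam and Cdh1. Krt18 exceeded Krt8, Krt8 exceeded Cldn2 and Cldn2 exceeded Cldn3 in 3 of 3 CON libraries, although the ranges of all neighbors overlapped. Cldn3 exceeded Cldn1 in 1 of 3 CON libraries, so their order was not stable. In PQQ-L, Cldn1 (mean 1.23) exceeded Krt18 in 4 of 5 libraries and Cldn3 came last. In PQQ-H, Cldn1 (mean 0.407) exceeded Cldn2 in 4 of 4 libraries without overlap. The genes from Cldn2 down to Cdh1 in PQQ-H overlapped with their neighbors.

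On the log2(FPKM + 0.1) scale, 6 of the 7 genes lay below CON in the PQQ-L group, with a median difference of -3.26 over the 7 genes and a range of -4.81 to 0.09. The 4 genes without overlap were Krt8, Krt18, Cldn2 and Cldn3, where 5.85% of all 27659 genes above 0 were lower in PQQ-L without overlap. In PQQ-H, 7 of 7 genes were lower than in CON with a median difference of -4.06 and a range of -6.28 to -1.13, and none overlapped, where 4.95% of all genes were lower without overlap. Both comparisons used the same 3 CON libraries. The median difference over all genes was -0.02 in each. These values describe genes that were chosen on these comparisons, and nothing is read from the shares.

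Without the 4 libraries high in striatal markers, the median difference over the 7 genes came to -2.45 (PQQ-L) and -3.24 (PQQ-H). By gene, it was -3.61 and -5.05 for Krt8, -3.77 and -5.31 for Krt18, -2.45 and -3.24 for Cldn2 and -3.33 and -3.67 for Cldn3. It was -1.17 and -2.54 for Cldn1 and -1.30 and -1.76 for Epcam. For Cdh1 the difference in PQQ-L turned from 0.09 to -0.49, and that in PQQ-H was -1.72. CON is then the single library CON 2, which was the lowest of the 3 for Krt8, Krt18, Cldn2 and Cldn3.

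The contrast between the doses was tested with limma on log2(FPKM + 0.1). The values of all 3 groups were known when the genes were chosen, so this test is not independent of that choice. Krt8, Krt18, Cldn2 and Cldn3 passed the filter on low levels (a mean FPKM of at least 0.5 over the 12 libraries) only through CON. A gene was called at an adjusted p below 0.05 and a |log2FC| above 1. All 7 genes were lower in PQQ-H than in PQQ-L, with a median difference of -1.01, and Krt8, Krt18 and Cdh1 did not overlap (2.02% of all genes were lower in PQQ-H without overlap). None of the 7 was called, and 0.0% of the 13796 genes tested were called lower in PQQ-H in this contrast. Krt18 differed by -1.47 (SE 0.39, limma adjusted p = 0.58), Krt8 by -1.34 (SE 0.34, limma adjusted p = 0.58) and Cldn2 by -0.80 (SE 0.35, limma adjusted p = 0.58). Cldn1 differed by -1.01 (SE 0.67, limma adjusted p = 0.596) and Cldn3 by -0.26 (SE 0.39, limma adjusted p = 0.787). Cdh1 and Epcam did not reach the mean FPKM of 0.5 needed to enter the test. In a test without that filter they differed by -1.22 (SE 0.30, limma adjusted p = 0.742) and -0.86 (SE 0.54, limma adjusted p = 0.745). Without the 4 libraries high in striatal markers, the differences were -1.44 for Krt8, -1.54 for Krt18, -0.78 for Cldn2, -1.37 for Cldn1, -0.34 for Cldn3, -1.22 for Cdh1 and -0.46 for Epcam. Cldn3 came to 0.0088 without PQQ-L 3, so its direction rested on that library.

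Markers of some other cell types moved with these genes. The summed FPKM of 20 choroid plexus markers was 1817 to 6014 in CON, 109 to 209 in PQQ-L and 74.3 to 103 in PQQ-H, and 17 of the 20 markers in PQQ-L and 19 of 20 in PQQ-H lay below CON without overlap (5.85% and 4.95% of all genes did so). None of the 20 was at 0 in all libraries of a group. The list was led by Ttr (transthyretin, the main secreted protein of this epithelium), Enpp2 and Igf2. Markers of ependyma, the ciliated lining of the ventricles, summed to 45.6 to 65.6 in CON, 21.4 to 43.2 in PQQ-L and 10.4 to 31.2 in PQQ-H (4 and 9 of 10 below CON without overlap). Meningeal fibroblast markers summed to 620 to 849, 344 to 657 and 250 to 440 (4 and 6 of 10 below CON without overlap). Arachnoid barrier markers summed to 583 to 788, 333 to 642 and 238 to 440 (2 and 4 of 7 below CON without overlap), where most of the sum came from Ptgds, which the meningeal list also holds. Endothelial markers summed to 75.1 to 114, 76.5 to 86.3 and 71.5 to 126, with overlap in all groups (0 and 1 of 8 below CON). Hippocampal neuron markers summed to 70.1 to 274, 199 to 345 and 118 to 407, with none of 10 below CON without overlap. The part of these cell types in the levels of the 7 genes was not tested, and in bulk tissue fewer cells of a type cannot be told apart from less RNA per cell.

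The level of each gene was therefore also given per 1000 FPKM of Ttr. The Ttr mean was 44.5-fold higher in CON than in PQQ-L and 163-fold higher than in PQQ-H. A gene that fell less than Ttr, or not at all, must rise on this ratio, whatever cells express it. A higher ratio is therefore no sign of higher expression. Relative to Ttr, Krt18 had a median of 4.26 in CON (3.94 to 4.76), 4.18 in PQQ-L (2.94 to 9.33) and 3.22 in PQQ-H (1.47 to 7.12), and the ranges overlapped in all groups. Krt8 had a median of 2.06 in CON (1.73 to 2.32), 2.65 in PQQ-L (1.52 to 3.74) and 0.771 in PQQ-H (0 to 1.14), with PQQ-H below the other groups. This order rests on 1, 2, 1 and 0 reads of Krt8 in PQQ-H 1 to 4 and 4 reads in PQQ-L 5, the lowest of PQQ-L. Cldn3 had a median of 0.778 in CON (0.647 to 0.873), 0.357 in PQQ-L (0 to 2.09) and 0.851 in PQQ-H (0 to 1.32), with overlap. The PQQ-H values of Cldn3 rest on at most 1 read per library. For these 3 genes the CON and PQQ-L ranges of the ratio overlapped, whereas their FPKM ranges did not.

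Cldn2 had a median of 1.02 in CON (0.915 to 1.18), 2.59 in PQQ-L (1.79 to 5.47) and 5.36 in PQQ-H (3.14 to 5.60), and both PQQ groups lay above CON. Cldn1 also lay above CON in both PQQ groups, with a median of 0.833 in CON (0.151 to 1.42), 20.1 in PQQ-L (2.33 to 29.0) and 20.0 in PQQ-H (11.4 to 30.2). Its mean FPKM was 1.93-fold higher in CON than in PQQ-L and 5.82-fold higher than in PQQ-H. Both falls were smaller than those of Ttr, which raises the ratio. Cdh1 had a median of 0.0292 in CON (0.0141 to 0.173), 2.22 in PQQ-L (0.712 to 4.50) and 0.419 in PQQ-H (0 to 0.760). Epcam had a median of 0.246 in CON (0.0382 to 0.327), 0.875 in PQQ-L (0.494 to 15.7) and 1.11 in PQQ-H (0 to 5.45). In PQQ-L the ratios of Cldn1, Cldn2, Cdh1 and Epcam did not overlap with CON. In PQQ-H those of Cdh1 and Epcam did, since Cdh1 was at 0 in PQQ-H 4 and Epcam in PQQ-H 1 and PQQ-H 2. Without the 4 libraries high in striatal markers, the ratio in CON 2 lay within the PQQ-L range for Krt8 (2.32), Krt18 (4.26) and Cldn3 (0.873). It lay below every PQQ-L library for Cldn1 (1.42), Cldn2 (1.18), Cdh1 (0.173) and Epcam (0.327). In the PQQ-H libraries that remained, the ratio was 0.622 and 0 for Krt8, 4.81 and 1.64 for Krt18, 11.4 and 21.9 for Cldn1 and 5.14 and 5.60 for Cldn2. It was 0.889 and 0 for Cldn3, 0.760 and 0 for Cdh1 and 5.45 and 2.22 for Epcam.

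**Figure D2:**
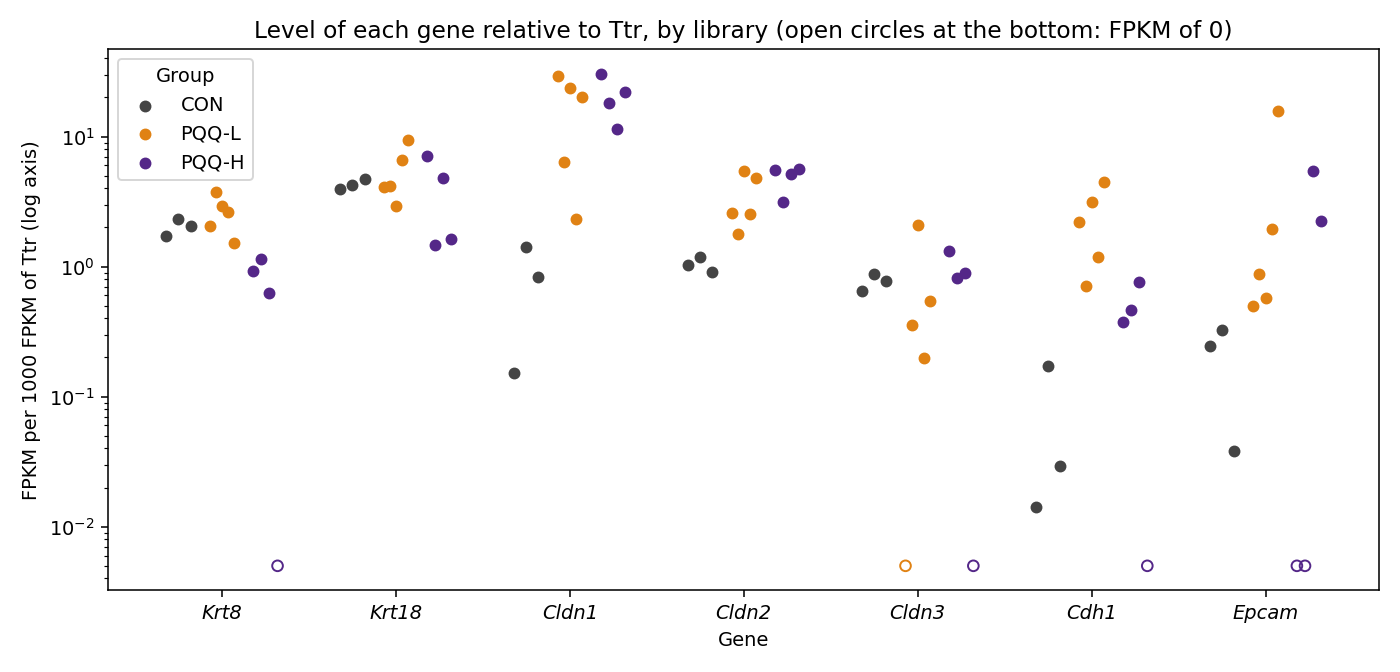
FPKM of each gene per 1000 FPKM of Ttr (log axis) in each library, colored by group (CON n = 3, PQQ-L n = 5, PQQ-H n = 4), with open circles at the bottom for an FPKM of 0. Krt18 (medians 4.26, 4.18 and 3.22) and Cldn3 overlapped between groups, whereas Cldn1 (medians 0.833, 20.1 and 20.0) lay higher in the PQQ libraries. The FPKM of Cldn1 fell less than that of Ttr, which raises this ratio.

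The level of each gene was also set against the markers of each cell type as Pearson's r of its log2 level with the mean log2 level of the list. The points share library depth and the contrast between groups, so r is given over the 12 libraries, over the 9 PQQ libraries and over the 8 libraries low in striatal markers. With the choroid plexus markers, r over these sets was 0.99, 0.88 and 0.97 for Krt8, 0.97, 0.66 and 0.92 for Krt18, 0.99, 0.92 and 0.98 for Cldn2 and 0.98, 0.68 and 0.94 for Cldn3. It was 0.65, 0.71 and 0.70 for Cldn1, 0.48, 0.89 and 0.75 for Cdh1 and 0.59, 0.14 and 0.41 for Epcam. The order of the genes by r thus differed between the sets, and over the PQQ libraries Cdh1 and Cldn1 lay above Cldn3 and Krt18. Over the 12 libraries, Cldn1 had its highest r with the arachnoid barrier markers (0.86, 0.85 and 0.90) and Cdh1 with the meningeal fibroblast markers (0.81, 0.88 and 0.84). For Cdh1 this ranking did not hold in the other sets. Its highest r was with the choroid plexus markers over the 9 PQQ libraries (0.89). Over the 8 libraries low in striatal markers it was with the arachnoid barrier markers (0.95). Endothelial markers had an r of at most 0.52 with any of the 7 genes over the 12 libraries. It ranged from -0.47 (Epcam) to 0.39 (Cldn1) over the 9 PQQ libraries. Over the 8 libraries low in striatal markers it was -0.17 (Epcam) to 0.74 (Cdh1), with 0.66 for Cldn1. With the striatal markers, r over these sets was -0.12, -0.73 and -0.75 for Epcam. With the hippocampal neuron markers it was -0.08, 0.66 and 0.45 for Epcam. For the other genes over the 9 PQQ libraries, r with the striatal markers was -0.50 (Krt18) to 0.10 (Cldn1).

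**Figure D3:**
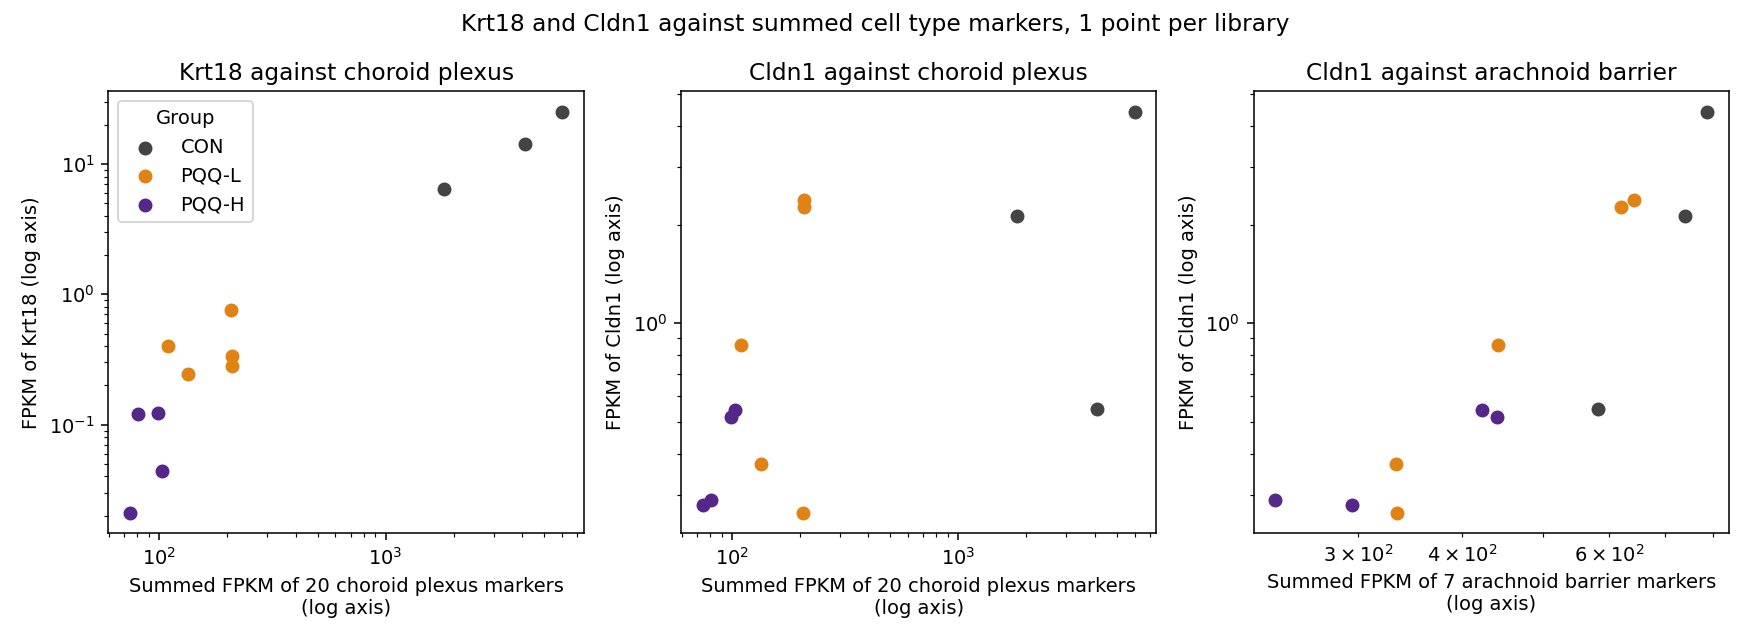
FPKM of Krt18 and of Cldn1 against the summed FPKM of 20 choroid plexus markers, and of Cldn1 against 7 arachnoid barrier markers (all axes log), 1 point per library colored by group (CON n = 3, PQQ-L n = 5, PQQ-H n = 4). With the mean log2 level of the choroid plexus markers, r was 0.97 for Krt18 and 0.65 for Cldn1 over the 12 libraries, and 0.66 and 0.71 over the 9 PQQ libraries. For Cldn1 with the arachnoid barrier markers it was 0.86 and 0.85. Most of the choroid plexus sum came from Ttr in CON and from Enpp2 in PQQ-H.

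The genes whose log2 levels were most like those of each gene over the 12 libraries, among genes that entered the limma tests, were named by Pearson's r, followed by r over the 9 PQQ libraries. They were Ttr (0.99 and 0.96), Lbp (0.98 and 0.88) and Aqp1 (0.98 and 0.79) for Krt8 and Ttr (0.99 and 0.85), Aqp1 (0.98 and 0.72) and Defb11 (0.97 and 0.66) for Krt18. Lbp encodes a lipopolysaccharide-binding protein and Aqp1 a water channel of the choroid plexus. For Cldn2 they were Slc4a5 (0.99 and 0.95), a bicarbonate cotransporter, Kcne2 (0.99 and 0.84), a potassium channel subunit, and Aqp1 (0.99 and 0.83). For Cldn3 they were Kcne2 (0.998 and 0.97), Pcolce (0.98 and 0.34) and Slc4a5 (0.98 and 0.68). For Cldn1 they were Tmem67 (0.98 and 0.98), a protein of the primary cilium, and the transporters Slc13a4 (0.94 and 0.91) and Slc6a20a (0.94 and 0.91). For Cdh1 they were Aldh1a2 (0.94 and 0.95), a retinoic acid-synthesizing enzyme, Amn (0.93 and 0.93) and Mroh1 (0.93 and 0.93). For Epcam they included Nop16 (0.87 and 0.79) and Myc (0.84 and 0.85). Over the 8 libraries low in striatal markers, r of the genes named was 0.80 (Nop16) to 0.996 (Kcne2 with Cldn3). Ttr, Lbp, Aqp1, Slc4a5, Kcne2 and Slc13a4 belong to the choroid plexus list and Aldh1a2 to the meningeal fibroblast list. Krt8 and Krt18 had an r of 0.98 with each other (0.80 over the PQQ libraries), and Cldn1 and Epcam had 0.14 (-0.05).

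Other genes of the same structures were tested in all comparisons. Over 152 other keratins, claudins, cadherins, junction components and epithelial regulators, 71 were expressed highly enough to test. In PQQ-L vs. CON, 1 was called lower and 0 higher, and 0.471% of all genes tested were called lower. At an unadjusted limma p below 0.05, 12 of the 71 were lower and 9 higher. Of all genes tested, 11.6% were lower and 8.92% higher at that threshold. In PQQ-H vs. CON, 3 were called lower and 0 higher, and 0.819% of all genes tested were called lower. At an unadjusted limma p below 0.05, 12 of the 71 were lower and 0 higher, where 7.88% of all genes tested were lower and 1.85% higher. In PQQ-H vs. PQQ-L, 0 were called by limma or by voom on recovered reads, and 4 had an unadjusted limma p below 0.05, as had 8.15% of all genes tested. The median log2FC of the 71 genes was -0.04, -0.16 and -0.14 in PQQ-L vs. CON, in PQQ-H vs. CON and between the doses. The called counts rested on the libraries used. Calls without the 4 libraries high in striatal markers rest on a single CON library. Without CON 2 the count in PQQ-L was 18, of which 8 were lower. CON was then CON 1 and CON 3, both high in striatal markers, whereas all PQQ-L libraries were low in them. The share of all genes called in that setting is not given, so nothing is read from this count. Cldn5, Cdh5, Klf5 and Dsp are in these lists and also among the endothelial, arachnoid or neuronal markers. The lists follow gene families and structures, so they also hold genes that are not particular to epithelia, such as Cldn11 and Cdh11. Their medians therefore do not describe epithelial cells alone.

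Among the other keratins, 9 of 41 were tested and 0 were called in any comparison. The most abundant, Krt222, was at a mean FPKM of 13.3 ± 2.24 (CON, SD, n = 3), 15.1 ± 1.52 (PQQ-L, SD, n = 5) and 14.6 ± 2.41 (PQQ-H, SD, n = 4), with overlap in all groups. Among the other claudins, 5 of 23 were tested and 0 were called. Cldn11, the claudin of myelin, was at 165 ± 58.8 (SD, n = 3), 111 ± 16.5 (SD, n = 5) and 127 ± 56.9 (SD, n = 4). Among the other cadherins, 16 of 22 were tested and 0 were called. Cdh11, a mesenchymal cadherin, was at 7.08 ± 3.29 (SD, n = 3), 11.2 ± 1.56 (SD, n = 5) and 9.10 ± 2.66 (SD, n = 4). In these 3 families 2 genes were lower and 4 higher at an unadjusted limma p below 0.05 in PQQ-L, and 1 was lower in PQQ-H. By voom on recovered reads, Cdh3, which is below the limma filter, was called lower in both. The share of all genes called by voom is not given, so voom calls are not read against it.

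Of the 22 tight junction components, 18 were tested, and 0 were called in PQQ-L and 1 in PQQ-H, with 7 and 6 lower and 0 higher at an unadjusted limma p below 0.05. By voom, for which the share of all genes called is not given, Cgnl1 and Crb3 were called lower in PQQ-L. Both as well as Cgn were called lower by voom in PQQ-H. Crb3 had the lowest log2FC of the list by limma but was not called. It was -2.36 in PQQ-L (SE 0.51, limma adjusted p = 0.0765) and -2.53 in PQQ-H (SE 0.53, limma adjusted p = 0.0503). Cgnl1, which encodes the cytoplasmic plaque protein paracingulin, was at an FPKM of 4.83, 3.59 and 5.88 in CON, 1.58 to 2.79 (median 1.94) in PQQ-L and 2.23, 2.26, 1.22 and 1.54 in PQQ-H. Both PQQ groups lay below CON without overlap. Its log2FC was -1.36 in PQQ-H (SE 0.25, limma adjusted p = 0.0268) and -1.22 in PQQ-L (SE 0.24, limma adjusted p = 0.0511), which did not pass. The most abundant member, Ildr2, was not called (log2FC 0.57 in PQQ-L, -0.04 in PQQ-H). Of the 12 adherens junction components all were tested and 0 were called by limma or voom, with 1 lower and 3 higher in PQQ-L and 2 lower in PQQ-H at an unadjusted limma p below 0.05. Ctnnb1, which encodes beta-catenin, the partner of E-cadherin, was at 137 ± 15.2 (SD, n = 3), 144 ± 14.8 (SD, n = 5) and 134 ± 4.44 (SD, n = 4).

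Of the 13 desmosome genes, 4 were tested, and Perp was called in both comparisons with CON. Perp encodes a membrane protein of desmosomes and a p53 target. It was at an FPKM of 7.06, 4.33 and 9.25 in CON, 1.97 to 2.38 (median 2.07) in PQQ-L and 2.12, 2.58, 1.43 and 1.97 in PQQ-H. Every PQQ library lay below every CON library. The log2FC was -1.59 in PQQ-L (SE 0.22, limma adjusted p = 0.00701) and -1.68 in PQQ-H (SE 0.23, limma adjusted p = 0.00487). Both calls were lost without the 4 libraries high in striatal markers (limma adjusted p = 0.326 and 0.117), and the call in PQQ-L was lost without CON 1 (limma adjusted p = 0.0625). Pkp2, the most abundant gene of the list, had a log2FC of 1.52 in PQQ-L (SE 0.72, limma adjusted p = 0.249) and 1.07 in PQQ-H (SE 0.76, limma adjusted p = 0.720). It was at an FPKM of 0.847 in CON 1, 8.86 in CON 2 and 2.41 in CON 3.

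Of the 19 epithelial regulators and membrane proteins, 7 were tested, and 0 were called in PQQ-L by limma or voom (1 lower and 2 higher at an unadjusted limma p below 0.05) and 1 in PQQ-H. Spint2, an inhibitor of epithelial serine proteases, was at an FPKM of 20.9, 14.3 and 33.1 in CON, 7.04 to 14.7 (median 8.02) in PQQ-L and 8.71, 7.73, 5.63 and 4.90 in PQQ-H. PQQ-L 3 lay above the lowest CON library, and the PQQ-H libraries lay below all CON libraries. The log2FC was -1.69 in PQQ-H (SE 0.31, limma adjusted p = 0.0268) and -1.28 in PQQ-L (SE 0.30, limma adjusted p = 0.0977), which did not pass. The calls of Spint2 and Cgnl1 in PQQ-H were lost without CON 1, CON 3, PQQ-H 3 or PQQ-H 4 and without the 4 libraries high in striatal markers (limma adjusted p = 0.323 and 0.282). The log2FC was then -1.43 for Spint2 and -1.33 for Cgnl1, with 1 CON library left. Mal2, the most abundant member, was not called (log2FC 0.63 in PQQ-L, 0.45 in PQQ-H).

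Of 7 repressors of Cdh1 and mesenchymal genes, 5 were tested, and 0 were called in PQQ-L (1 lower and 1 higher at an unadjusted limma p below 0.05) and 1 in PQQ-H. Vim, the vimentin filament of mesenchymal cells and glia, was at an FPKM of 48.6, 37.6 and 48.4 in CON, 23.1 to 32.2 in PQQ-L and 21.0, 34.9, 17.9 and 17.3 in PQQ-H. Its log2FC was -1.03 in PQQ-H (SE 0.22, limma adjusted p = 0.0488) and -0.76 in PQQ-L (SE 0.21, limma adjusted p = 0.159). The call in PQQ-H was close to both thresholds and was lost in 20 of 24 alternatives.

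**Figure D4:**
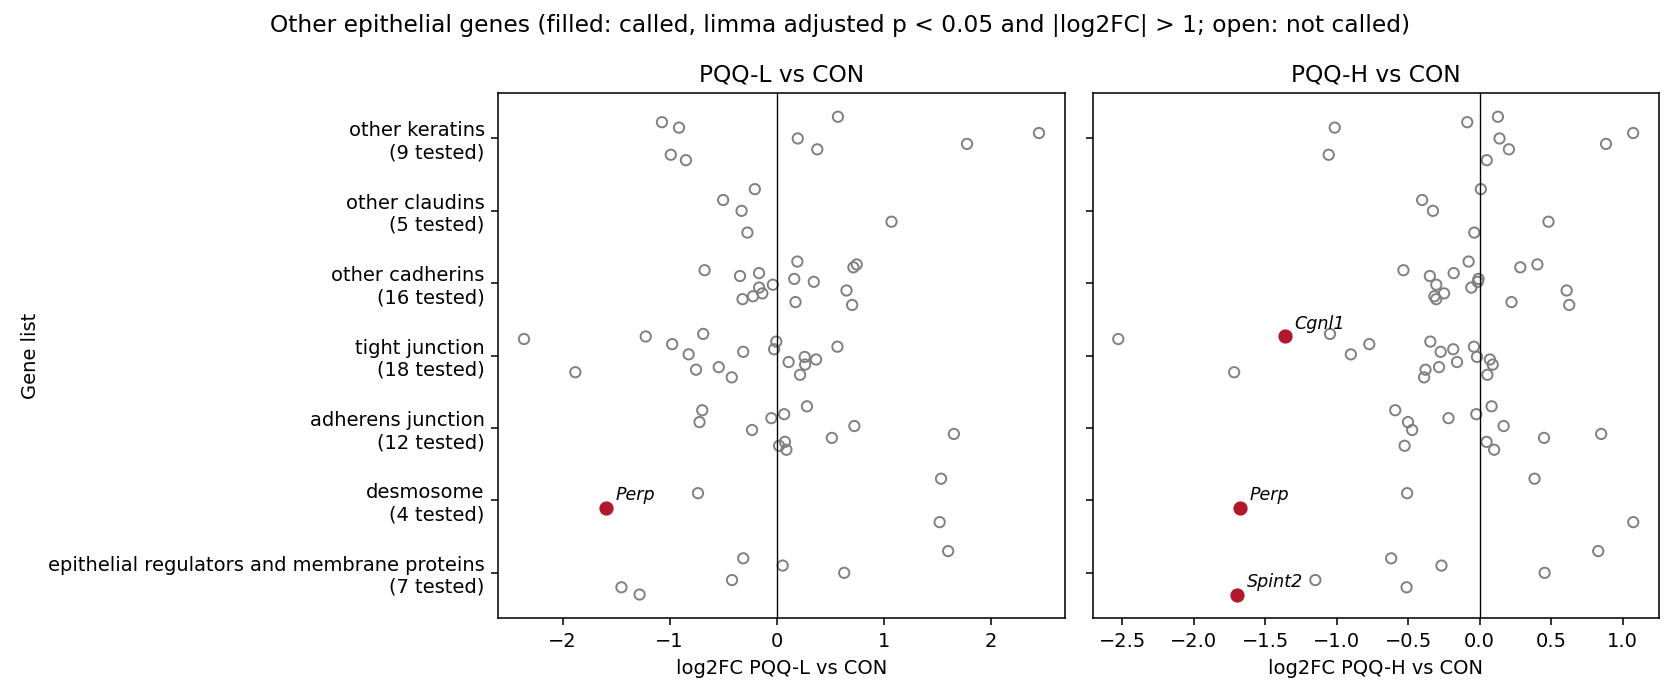
The log2FC of each tested gene of 7 lists of other epithelial genes against CON, in PQQ-L (left) and PQQ-H (right; 1 point per gene, 71 genes), with genes called by limma filled and named. Most points lay around 0, and Perp was called in both comparisons while Cgnl1 and Spint2 were called in PQQ-H.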

How the data were processed

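Hippocampal RNA was sequenced in 12 libraries. Reads were filtered (fastp), aligned (HISAT2) and assigned to genes (HTSeq-count) by the authors, whose processing notes name the build mm39. The authors deposited FPKM in 1 table. FPKM divides reads by gene length and library total, so 1 read in a short gene weighs more. Whole reads were recovered from ratios between libraries (tolerance 0.02 reads, 100% of genes with at least 2 values). No pair of libraries in a group was a duplicate (19 pairs, where chi-square per degree of freedom was at least 17.4). The authors used DESeq2 on counts not used here.

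Differences were computed on log2(FPKM + 0.1), which understates the change of low genes. Tests used limma 3.58.1 in R 4.3.3 with trend, 1 fit of 12 libraries and a minimum mean FPKM of 0.5. Genes were called at an adjusted p (Benjamini-Hochberg, two-sided) below 0.05 and a |log2FC| above 1, the thresholds of the paper. The fit was tested on simulated data. The other steps used Python 3.11.15. Positions come from GENCODE M21 and promoters from RefSeq (both GRCm38), matched by symbol. Genes named were the 7 genes, those called (up to 5 a list), the most abundant of each list and the 3 most correlated, of which 1 is not reported here. The genes, lists and tests were chosen with earlier results of these data known. Alternatives were other pseudocounts, filters, scalings and models, each library left out, and the libraries high in striatal markers left out.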

Additional observations from a re-analysis of the deposited data

Results flagged for a closer look

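Groups of 4 or 5 libraries were screened for a single library far from the rest of its group, over 16 groups and values. Chance flags about 1 in 20 of normally distributed values. Several values here rest on a few reads, and that rate does not hold for them. Cldn3 in PQQ-L 3 was at an FPKM of 0.199 (9 reads), while the next library of the group was at 0.0232 (1 read). The lowest PQQ-H library for Cldn3, PQQ-H 4, was at 0, and the others had 1 read each. Epcam in PQQ-L 5 was at 0.668 (47 reads), and the next library of the group was at 0.221. The ratio of Krt8 to Krt18 was 0.776 in PQQ-H 2, against 0.129 in the next library, and it rested on 2 reads of each gene.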

How the results depend on the processing

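The median difference of the 7 genes from CON kept its direction in all alternatives run. In PQQ-L (-3.26) it was -1.70 with a pseudocount of 1 and -2.45 without the libraries high in striatal markers, and leaving out each library gave -3.67 to -2.96. In PQQ-H (-4.06) it was -1.74 with a pseudocount of 1, -4.91 with a pseudocount of 0.01 and -3.24 without those libraries, and leaving out each library gave -4.46 to -3.76. Of the 7 genes, 0 were called in PQQ-H vs. PQQ-L in the alternatives in which they entered the test (24 for Krt8, Krt18, Cldn1 and Cldn2, 23 for Cldn3 and 2 for Cdh1 and Epcam). Cldn3 (-0.26) reversed to 0.0088 in this contrast without PQQ-L 3, and leaving out each library gave -0.39 to 0.0088. Cdh1 in PQQ-L vs. CON ranged from -0.25 without CON 1 to 0.38 without CON 2.

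The lists of other keratins, claudins, cadherins, junction components and epithelial regulators had 1 gene called in PQQ-L. This count was 2 with a pseudocount of 1, with TPM and with only the 2 groups compared. It was 3 without the filter and 4 with voom on recovered reads. Without the libraries high in striatal markers 1 CON library was left, so no count is given for that fit. Leaving out each library gave 0 to 18, with 0 without CON 1 and 3 without PQQ-L 3 or PQQ-H 3. The count of 18 came without CON 2, which left CON 1 and CON 3, both high in striatal markers. In PQQ-H the count (3) was 5 without the filter or without trend and 6 with voom. It was 1 with the name letter as covariate and 0 with only the 2 groups compared. Leaving out each library gave 1 to 4, with 1 without CON 1, PQQ-H 3 or PQQ-H 4. Both counts were 0 in a fit with a replicate block. The share of all genes called is not given for the alternatives, so these counts are not read against it. The numbers were not shown to pair libraries, since 4 of 10 same-number pairs had a correlation above 0.1 (-0.62 to 0.72) and 4 of 11 libraries correlated best with their own number. The calls of Perp, Cgnl1 and Spint2 in PQQ-H were also lost in the block and with only the 2 groups compared, and that of Perp in PQQ-L in the block. The causes were not tested. In genes at a few reads per library, depth limits any order between the PQQ groups.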

Other observations

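2 genes below the filter, Cdh3 and Krt23, were chosen after their values were seen, because they were called lower in both comparisons with CON when the filter was left out. Cdh3, which encodes P-cadherin, had 43, 21 and 80 reads in CON 1 to 3, 16 in PQQ-L 3 and at most 1 in each other PQQ library. Krt23, an epithelial keratin, had 16, 5 and 23 reads in CON 1 to 3, 4 in PQQ-L 4 and at most 1 in each other PQQ library. For Cdh3, every PQQ library lay below every CON library, with 0.111 as the highest FPKM in PQQ and 0.175 as the lowest in CON. Krt19, another keratin of simple epithelia, had 16 reads in CON 1 and at most 2 in each other library. Krt7 had 29 reads in CON 1, 12 in PQQ-L 4 and at most 1 in each other library.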
